A study of Homo sapiens with 6 samples.

Results

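Mitochondrial ribosomal protein genes were described in BT-549 cells after silencing of the NEAT1 lncRNA. They were taken by symbol, as every row of the expression table that starts with MRPL or MRPS and a number and is neither an antisense or divergent transcript nor a numbered pseudogene. The rule gave 78 genes of the 25545 in the table, 49 with an MRPL and 29 with an MRPS symbol. The RNA-seq data hold 3 libraries that received a control siRNA, named CsiRNA, and 3 that received a NEAT1siRNA by transfection, with RNA taken 48 h later. BT-549 is an established line of triple-negative breast cancer (TNBC), grown here in RPMI1640 with serum and insulin. Both groups went through transfection, so the comparison is between the siRNAs. The sample titles carry the prefix tet-, although the treatment named is an siRNA. The data cover 1 cell line and 1 named NEAT1siRNA. The labels do not say whether the triplicate cultures were separate experiments, so p-values measure the spread between these libraries.

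Mitochondria carry their own ribosome, the mitoribosome, which translates the few messages of mitochondrial DNA. Those messages encode core subunits of the respiratory chain and of ATP synthase, so the mitoribosome works for oxidative phosphorylation alone. Its RNAs are made inside the organelle, whereas its proteins are encoded in the nucleus, translated in the cytoplasm and imported. Symbols with S mostly denote the small subunit, which decodes the message, and symbols with L mostly denote the large subunit, which forms the peptide bond. Some of the proteins have relatives in the bacterial ribosome and others are found in mitochondria alone.

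The targeted RNA was checked first. NEAT1 was at 13.4, 7.68 and 10.8 TPM (a level per unit of transcript length, scaled to the same total in every library) in the CsiRNA libraries and at 4.36, 2.96 and 2.73 TPM in the NEAT1siRNA libraries. The mean after silencing was 31.5% of the CsiRNA mean, and the log2 fold change was -1.41 (adjusted p = 1.21e-07 by limma). The reads behind the TPM values, recovered as described in the processing, summed to between 15788269 and 20342451 per library. VIM (859 to 1112 TPM), CDH2 (76.0 to 113 TPM) and FN1 (56.3 to 93.8 TPM), markers of mesenchymal cells, were high in every library. FN1 and CDH2 were lower after NEAT1 silencing (log2 fold changes -0.47 and -0.34, adjusted p = 0.00116 and 0.0186 by limma), VIM was not called (-0.15, adjusted p = 0.243 by limma), and their part in the changes of the mitoribosomal genes was not tested. Of the epithelial markers, CDH1 reached at most 0.168 TPM, EPCAM at most 0.0301 TPM and KRT18 at most 2.07 TPM, and ESR1 was listed at 0. The immune marker PTPRC and the endothelial marker PECAM1 stayed at or below 0.0580 TPM. Within both groups the libraries differed along GC content. Spearman's rho between GC content and a gene's deviation from its group mean was 0.68 in NEAT1siRNA replicate 1 and -0.73 in NEAT1siRNA replicate 2 over all genes tested. Over the mitoribosomal genes it was 0.61 and -0.59 in these libraries. These correlations are across genes, which are not independent replicates.

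Genes with a mean of at least 1 TPM were tested with limma on log2(TPM + 1), which left 77 mitoribosomal genes among 10721 genes. A gene was called at a Benjamini-Hochberg adjusted p under 0.05. Over all genes tested, 1498 were called (14.0%), of which 963 were lower after NEAT1 silencing (8.98%) and 535 were higher (4.99%). Of the mitoribosomal genes, 4 were called lower (5.19%) and 0 were called higher. The 4 were MRPL52, MRPS25, MRPL10 and MRPL20. At an unadjusted p under 0.05 by limma, 13 mitoribosomal genes were lower and 1, MRPS6, was higher, which is 18.2% of the members beside 27.4% of all genes tested. In a test of the recovered reads with voom, which is added here because TPM values hide the depth, 5 mitoribosomal genes were lower (all genes, 11.6%) and 1 was higher (all genes, 11.4%).

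Most mitoribosomal genes lay close to 0. The log2 fold changes ran from -0.37 to 0.21, with a median of -0.064 beside -0.044 over all genes tested. Of the 77 genes, 48 (62.3%) had an absolute log2 fold change under 0.1, beside 43.2% of all genes tested. None of the 77 exceeded 0.5 in either direction, whereas 319 of all genes tested did (2.98%). The standard error of a member's log2 fold change was between 0.084 and 0.11, and 2 standard errors came to a median of 0.19, which limits the changes that these libraries can show. The fold changes had a negative sign in 62 of the 77 genes (80.5%) on the TPM scale, beside 60.7% of all genes tested. After centring of each library on its median this was so in 42 genes (54.5%, all genes 46.8%), after quantile normalization in 44 (57.1%, all genes 50.4%) and on the scale of recovered reads in 43 (55.8%, all genes 49.3%). The members' medians were then -0.0075, -0.017 and -0.011. The number of negative signs in the family thus moved with how the libraries were scaled.

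**Figure D1:**
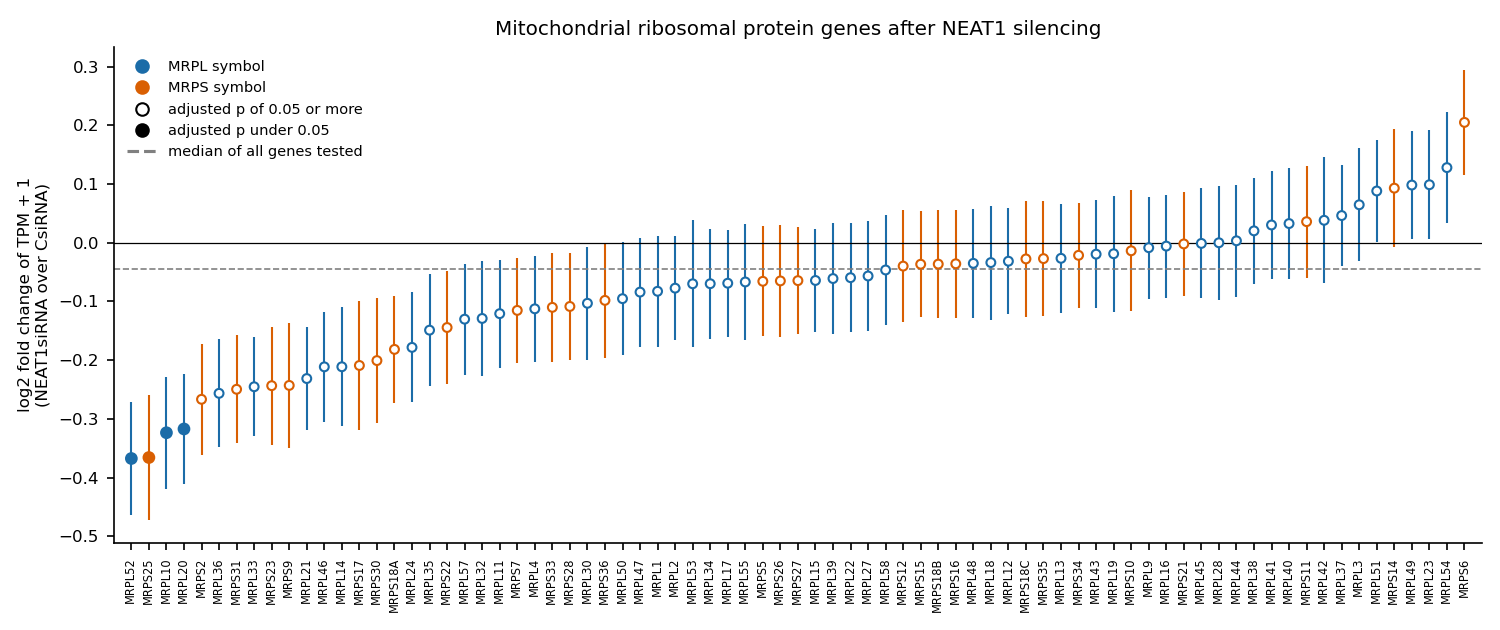
Log2 fold change of TPM + 1 (NEAT1siRNA over CsiRNA, vertical axis) of the 77 mitoribosomal genes tested, ordered by value along the horizontal axis, with bars of 1 standard error. Filled points are the 4 genes past the threshold, all of which lie at -0.32 or below, and the dashed line is the median of all genes tested (-0.044).

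MRPL52, a large subunit protein found in mitochondria alone, showed the lowest adjusted p of the family. Its level was 18.3, 17.4 and 14.9 TPM in the CsiRNA libraries and 13.1, 12.4 and 12.9 TPM in the NEAT1siRNA libraries. Every NEAT1siRNA library was below every CsiRNA library, and the log2 fold change was -0.37 ± 0.096 (SE, adjusted p = 0.0106 by limma). The gene lies at chr14:22829879-22835037 on the plus strand (GRCh38, GENCODE v44).

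MRPS25, a small subunit protein found in mitochondria alone and the only small subunit gene called, was among the least abundant members. It measured 4.97, 3.69 and 5.03 TPM with CsiRNA and 3.74, 3.09 and 3.07 TPM with NEAT1siRNA. The groups overlapped, since the second CsiRNA library lay below the highest NEAT1siRNA library. The log2 fold change was -0.37 ± 0.11 (SE, adjusted p = 0.0232 by limma). The gene is at chr3:15009611-15065339 on the minus strand.

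MRPL10 forms the base of the large subunit stalk, which recruits translation factors. It was at 7.68, 7.61 and 8.60 TPM with CsiRNA and at 6.73, 5.99 and 5.77 TPM with NEAT1siRNA, without overlap. The log2 fold change was -0.32 ± 0.095 (SE, adjusted p = 0.0243 by limma), and the gene is at chr17:47823272-47831541 on the minus strand.

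MRPL20 is a large subunit protein with a bacterial relative that binds ribosomal RNA early in assembly. It was at 68.2, 67.2 and 56.4 TPM with CsiRNA and at 51.6, 53.4 and 48.0 TPM with NEAT1siRNA, again without overlap. The log2 fold change was -0.32 ± 0.094 (SE, adjusted p = 0.0248 by limma), and the gene is at chr1:1401909-1407293 on the minus strand. In a bulk library, a lower level in all cells and a loss from some of the cells cannot be told apart.

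All 4 genes were also lower past the threshold on the recovered reads, where the log2 fold changes were -0.34 for MRPL52, -0.41 for MRPS25, -0.32 for MRPL10 and -0.27 for MRPL20. Their calls depended on single libraries, as did the number of calls over all genes tested. Without CsiRNA replicate 1, 0 mitoribosomal genes were called by limma, beside 7.08% of all genes tested (14.0% with all libraries). At an unadjusted p under 0.05, 6 were lower and 0 higher (7.79%, beside 20.2% of all genes tested). The adjusted p was then 0.0828 for MRPL52, 0.126 for MRPS25, 0.0526 for MRPL10 and 0.151 for MRPL20. Without NEAT1siRNA replicate 3, 1 gene was called (1.30%, beside 7.82% of all genes tested), MRPL52 (adjusted p = 0.0373 by limma). MRPS25, MRPL10 and MRPL20 were then at adjusted p values of 0.106, 0.118 and 0.133. Without CsiRNA replicate 3 or NEAT1siRNA replicate 2, 9 and 13 members were called, all lower (11.7% and 16.9%, beside 13.2% and 19.4% of all genes tested), but MRPS25 and MRPL10 lost the call without CsiRNA replicate 3 (adjusted p = 0.0867 and 0.109 by limma). MRPL20 lost it without CsiRNA replicate 2 (adjusted p = 0.122 by limma).

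**Figure D2:**
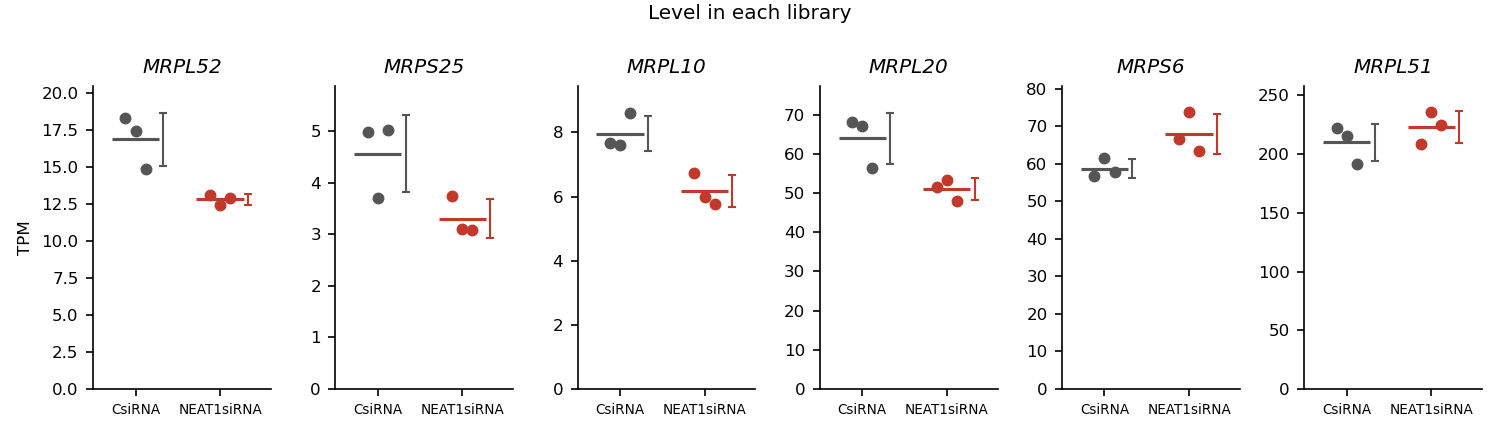
TPM (vertical axes, each from 0) of the 4 genes past the threshold and of MRPS6 and MRPL51 in each library, with points for libraries in replicate order, a line at the group mean and a bar of 1 SD on either side (n = 3). MRPL52, MRPL10 and MRPL20 separate the groups downwards, MRPS25 overlaps at 3.69 and 3.74 TPM, MRPS6 separates them upwards and MRPL51 overlaps.

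Promoter sequences are shown for the called genes that had one and for MRPS6, so that genes moving in opposite directions can be compared. RefSeq promoter windows (GRCh38.p14, 250 bases before to 50 bases after a transcript start) were found for 69 of the 78 genes, and not for MRPL10. Capitals mark matches, on either strand, to short motifs of factors known at nuclear genes for mitochondrial proteins or common at promoters: GCGCANGCG (NRF1), CCGGAAGT (ETS factors such as GABP), AAGATGGCG (YY1), GGGCGG (SP1), CACGTG (E-box) and CCAAT (NF-Y). Matches may overlap each other. The windows, written 5′ to 3′ on the strand of the gene, are these:
MRPL52, chr14:22829637-22829936, plus strand: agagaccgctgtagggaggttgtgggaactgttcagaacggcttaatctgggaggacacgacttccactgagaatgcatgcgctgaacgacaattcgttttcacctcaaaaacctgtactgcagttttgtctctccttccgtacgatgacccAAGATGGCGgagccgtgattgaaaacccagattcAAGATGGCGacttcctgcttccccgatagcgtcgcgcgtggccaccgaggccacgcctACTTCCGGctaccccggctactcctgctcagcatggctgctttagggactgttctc
MRPS25, chr3:15065266-15065565, minus strand: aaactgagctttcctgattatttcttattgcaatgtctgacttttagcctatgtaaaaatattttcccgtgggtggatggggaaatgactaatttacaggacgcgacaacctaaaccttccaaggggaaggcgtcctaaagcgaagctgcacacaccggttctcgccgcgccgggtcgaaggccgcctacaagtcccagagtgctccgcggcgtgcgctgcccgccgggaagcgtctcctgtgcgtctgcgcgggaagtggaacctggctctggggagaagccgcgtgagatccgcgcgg
MRPL20, chr1:1407244-1407543, minus strand: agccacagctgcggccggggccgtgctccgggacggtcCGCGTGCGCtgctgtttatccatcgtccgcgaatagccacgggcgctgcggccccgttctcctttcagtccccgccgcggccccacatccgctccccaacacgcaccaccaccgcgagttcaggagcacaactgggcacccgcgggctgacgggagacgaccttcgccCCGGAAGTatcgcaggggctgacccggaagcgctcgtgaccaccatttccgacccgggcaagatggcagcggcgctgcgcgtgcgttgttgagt
MRPS6, chr21:34073328-34073627, plus strand: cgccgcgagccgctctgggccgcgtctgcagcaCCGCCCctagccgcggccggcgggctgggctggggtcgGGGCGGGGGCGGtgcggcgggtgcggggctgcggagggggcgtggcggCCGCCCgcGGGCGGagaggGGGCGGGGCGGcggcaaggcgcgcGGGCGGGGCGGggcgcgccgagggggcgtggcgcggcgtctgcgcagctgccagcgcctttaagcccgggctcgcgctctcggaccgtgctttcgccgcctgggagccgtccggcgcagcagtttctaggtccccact

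The MRPL52 window held 2 YY1 matches and 1 ETS match, the MRPL20 window 1 NRF1 and 1 ETS match, and the MRPS25 window none of these letters. The MRPS6 window held 9 SP1 matches and no other. Over the 69 genes, the YY1 letters stood in the windows of 13 (18.8%), beside 5.39% of the genes tested and 2.14% of all 27305 genes with a window. ETS letters were in 17.4% of members (11.1% of the genes tested, 4.95% of all), and NRF1 letters in 20.3% (18.5% and 9.02%). Among nuclear genes for respiratory chain subunits, YY1 letters were in 15.7%, ETS letters in 15.7% and NRF1 letters in 33.3%. Among cytoplasmic ribosomal protein genes these shares were 7.94%, 14.3% and 12.7%. The E-box was in 13.0% of members (13.1% and 8.77%). SP1 letters were in 60.9% (78.7% and 48.3%) and CCAAT in 33.3% (43.8% and 39.7%). The median log2 fold change of members with and without the letters was -0.11 and -0.051 for YY1, -0.086 and -0.043 for NRF1, and -0.045 and -0.063 for ETS. For SP1, the E-box and CCAAT both medians lay between -0.064 and -0.059. These are descriptions without a test, and a match is not a bound site.

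MRPS6, a small subunit protein with a bacterial relative, was the only member whose NEAT1siRNA libraries all lay above the CsiRNA libraries. It was at 56.7, 61.6 and 57.7 TPM with CsiRNA and at 66.5, 73.8 and 63.3 TPM with NEAT1siRNA. The log2 fold change was 0.21 ± 0.090 (SE) and did not pass the threshold on TPM (adjusted p = 0.134 by limma). On the recovered reads it was 0.26 ± 0.073 (SE, adjusted p = 0.0164 by voom), and after median centring it was 0.26 (adjusted p = 0.0213 by limma). The next members by size of rise were MRPL54, found in mitochondria alone, at 0.13 (adjusted p = 0.414 by limma), and MRPL23, which borders the exit tunnel, at 0.099 (adjusted p = 0.539 by limma). MRPL54 was at 14.9, 13.3 and 12.3 TPM with CsiRNA and at 14.0, 15.3 and 15.3 TPM with NEAT1siRNA, so its groups overlapped.

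Without overlap between groups, 12 of the 77 members lay lower after NEAT1 silencing (15.6%), beside 19.3% of all genes tested, and 1 lay higher (1.30%), beside 11.0%. Both shares were below those of all genes. Beside MRPL52, MRPL10 and MRPL20, the 12 were MRPL4, MRPL21, MRPL33, MRPL36, MRPL46, MRPS2, MRPS7, MRPS18A and MRPS31. Among these, MRPL33, MRPS2, MRPL36, MRPS31 and MRPL21 had adjusted p values of 0.0522, 0.0589, 0.0649, 0.0714 and 0.0791 by limma, with log2 fold changes from -0.27 (MRPS2) to -0.23 (MRPL21). They are named after their values were seen. MRPS2, a small subunit protein with a bacterial relative, was at 38.4, 37.0 and 31.7 TPM with CsiRNA and at 29.6, 30.6 and 28.1 TPM with NEAT1siRNA, and passed the threshold on the recovered reads (log2 fold change -0.22, adjusted p = 0.0276 by voom). MRPL33, a small large-subunit protein with a bacterial relative and the second most abundant member by TPM, was at 144, 139 and 134 TPM with CsiRNA and at 120, 119 and 113 TPM with NEAT1siRNA.

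By place in the ribosome, 25 of the genes tested belong to the small subunit, with 1 lower (4%) and a median log2 fold change of -0.064. To the large subunit belong 51, with 3 lower (5.88%) and a median of -0.064. Over all genes tested 8.98% were lower. MRPS18A and MRPS30 are counted with the large subunit, where their proteins sit. MRPS36, whose protein is now known as a component of the 2-oxoglutarate dehydrogenase complex, is in neither, and was at 4.85 TPM with a log2 fold change of -0.098 (adjusted p = 0.568 by limma). The 45 genes tested with bacterial relatives had a median of -0.067 and 2 lower (4.44%). The 31 counted as found in mitochondria alone had a median of -0.046 and 2 lower (6.45%), and this median was 0.0030 on the recovered reads. MRPS18A and MRPS18B are counted among the 31 and MRPS18C with the bacterial relatives, although these paralogs derive from 1 bacterial protein.

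The stalk carries MRPL10, MRPL11 and MRPL12. MRPL11, its neighbour at the stalk base, had a log2 fold change of -0.12 (adjusted p = 0.429 by limma). MRPL12, the stalk protein that contacts translation factors, was at 26.9, 26.7 and 25.1 TPM with CsiRNA and at 26.9, 24.2 and 25.9 TPM with NEAT1siRNA, a log2 fold change of -0.031 (adjusted p = 0.866 by limma) whose sign turned under the other scalings. Of the 3 stalk members 1 was called, beside 14.0% of all genes tested, and the difference between members was not tested.

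At the exit of the peptide tunnel 0 of 6 members were called by limma, and 0 had an unadjusted p under 0.05. Over all genes tested these shares were 14.0% and 27.4%. MRPL24 was at -0.18, MRPL47 at -0.084, MRPL17 at -0.069, MRPL22 at -0.059 and MRPL45, which ties the ribosome to the inner membrane, at -0.0010 on the log2 scale. MRPL23 was the only one with a positive sign on TPM, and MRPL45 was positive too (0.054) on the recovered reads. In the central protuberance, the crown of the large subunit where it meets the small one, 0 of 5 were called by limma, with MRPL46 alone under an unadjusted p of 0.05. MRPL46 had a log2 fold change of -0.21 (adjusted p = 0.136 by limma), and its groups did not overlap. MRPL48 was at -0.035, MRPL18 at -0.034, MRPL38 at 0.020 and MRPL40 at 0.033, and on the recovered reads MRPL48 and MRPL18 were positive as well (0.015 and 0.021). By voom on the recovered reads 0 members of either structure were called, beside 23.0% of all genes tested.

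The paralogs MRPS18A, MRPS18B and MRPS18C derive from 1 bacterial protein and take different places in the mitoribosome. MRPS18A was at 25.7, 23.7 and 22.9 TPM with CsiRNA and at 22.2, 21.1 and 20.1 TPM with NEAT1siRNA, a log2 fold change of -0.18 (adjusted p = 0.200 by limma). MRPS18B and MRPS18C differed by -0.036 and -0.027, less than their standard errors of 0.092 and 0.099. On the recovered reads MRPS18B and MRPS18C had a positive sign (0.0085 and 0.029).

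Levels spanned 62.6-fold among the members tested, with a median of 26.2 TPM beside 9.10 TPM over all genes tested. Of these, 59 lay between 10 and 100 TPM, 14 below and 4 above. The 4 most abundant were MRPL51 (216 TPM), found in mitochondria alone, MRPL33 (128 TPM), MRPL3 (123 TPM), which lies near the peptidyl transferase centre, and MRPL47 (103 TPM). In each library order MRPL51 measured 223, 215 and 192 TPM with CsiRNA and 209, 236 and 225 TPM with NEAT1siRNA, so it was well above the others in all libraries and its groups overlapped. MRPL3 and MRPL33 did not keep an order. MRPL3 ranged from 108 to 144 TPM and MRPL33 from 113 to 144 TPM. The least abundant members tested were MRPS11 (3.46 TPM), a small subunit protein with a bacterial relative, MRPS25 (3.93 TPM), MRPS18B (4.14 TPM) and MRPS36 (4.85 TPM). MRPS11 measured 3.58, 3.33 and 3.30 TPM with CsiRNA and 3.70, 3.19 and 3.66 TPM with NEAT1siRNA, so MRPS25 overlapped the ranges of both MRPS11 and MRPS18B, while MRPS18B (3.98 to 4.34 TPM) lay above MRPS11 in every library.

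The order of levels depended on the transcript length behind the TPM. From the recovered reads, the length that the TPM values imply could be set beside the canonical GENCODE transcript. It was over 1.5 times that transcript for 8 members and under 0.5 times for 7. For MRPS18B it was 7.64 times as long, so that MRPS18B ranked 75 of 78 by TPM but 24 by reads per kilobase of the canonical transcript (704 reads per kilobase). For MRPS33 and MRPS17 it was 0.131 and 0.173 times as long. Across the 78 members Spearman's rho between both level scales was 0.80, with the libraries shared. MRPL3 (2465 reads per kilobase) and MRPL51 (2177 reads per kilobase) led on this scale. The recovery took 1 length per gene for all libraries, and whether the lengths behind the TPM values differed between libraries was not tested.

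MRPS24, a small subunit protein with a bacterial relative, was the 1 member under the filter. It was listed at 0.680, 0.224 and 0.184 TPM with CsiRNA and at 0.211, 0.300 and 0.113 TPM with NEAT1siRNA, which stand for 6, 2, 2, 2, 3 and 1 reads. The next member by reads per kilobase was MRPS33, with 76.4 reads per kilobase beside 4.0 for MRPS24. A row for the read-through transcript URGCP-MRPS24 was listed at 0 in all 6 libraries, and how reads shared between these overlapping genes were counted is not given in the sources used here. Rows for the pseudogenes MRPL45P2 and MRPS31P5 held 38 to 73 and 61 to 99 reads per library, so the counts of MRPL45 and MRPS31 are uncertain to the extent that the counting could split reads between the copies.

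Together the members took 0.362% to 0.387% of recovered reads in the CsiRNA libraries and 0.366% to 0.379% in the NEAT1siRNA libraries. These ranges overlap. The median member deviated from its CsiRNA mean by 0.081, 0.034 and -0.11 on the log2(TPM + 1) scale in the CsiRNA libraries and by -0.068, -0.015 and -0.11 in the NEAT1siRNA libraries. CsiRNA replicate 3 thus lay with the NEAT1siRNA libraries. For all genes tested the median deviations were 0.075, -0.016 and -0.060 and then -0.051, 0.020 and -0.11. Their sign matched that of the members in 4 of 6 libraries and differed in replicate 2 of both groups. On the recovered reads the median member deviated by between -0.055 and 0.058 in the CsiRNA libraries and between -0.041 and 0.018 in the NEAT1siRNA libraries. The RNAs RN7SK, RN7SL1, RN7SL2 and RPPH1 took 64.4% to 68.1% of the summed TPM but 2.30% to 3.01% of reads, and their part in the library medians was not tested. The median coefficient of variation between libraries was 7.67% with CsiRNA and 6.20% with NEAT1siRNA for the members, beside 7.73% and 9.08% for all genes tested.

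**Figure D3:**
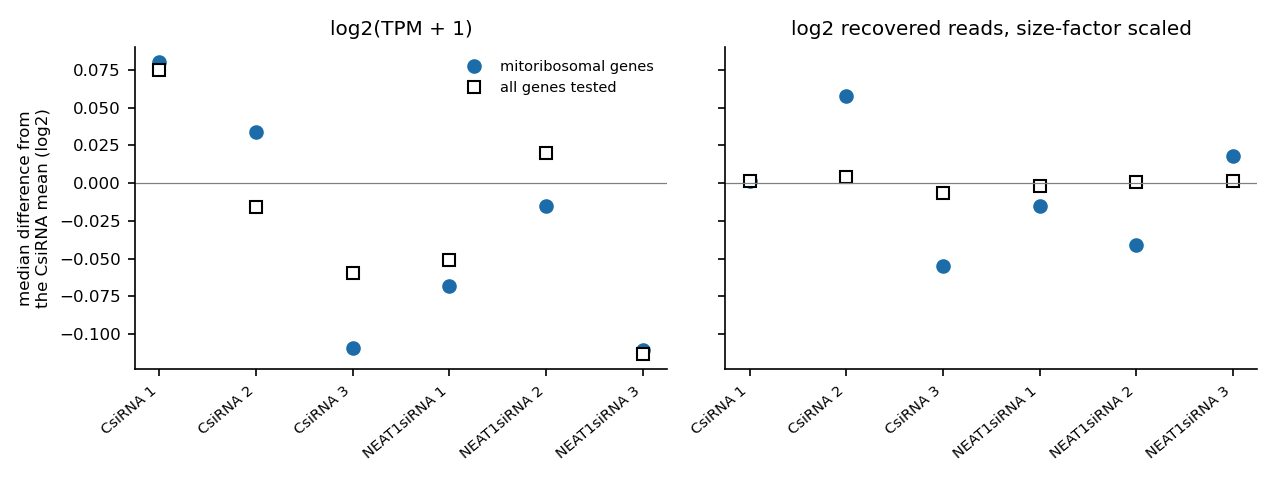
Median log2 difference from the mean of the CsiRNA libraries (vertical axis) in each library, for the 77 mitoribosomal genes (filled circles) and all genes tested (open squares), on log2(TPM + 1) at left and on recovered reads scaled by size factors at right. At left CsiRNA replicate 3 (-0.11) sits with NEAT1siRNA replicate 3 (-0.11), and at right all genes lie near 0 and members between -0.055 and 0.058.

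The lists next to the mitoribosome in the pathway were given the same test. In a list of subunits that mostly carry other symbols, such as DAP3 and PTCD3, 0 of 7 were called by limma and by voom. At an unadjusted p under 0.05 by limma there were 0 as well. Over all genes tested these shares were 14.0% by limma, 23.0% by voom and 27.4% at the unadjusted p. MRPL58 is in this list and among the members too. Of 27 assembly factors tested, 5 were lower (18.5%, beside 8.98% of all genes tested) and 1 was higher (all genes, 4.99%). Their median log2 fold change was -0.13, and -0.099 on the recovered reads (all genes, 0.0029). MRM3, which methylates the large ribosomal RNA, fell from 18.9 ± 1.72 to 14.5 ± 0.677 TPM (SD, n = 3, log2 fold change -0.36, adjusted p = 0.0119 by limma). RPUSD4, a pseudouridine synthase acting on the same RNA, changed by -0.33 (adjusted p = 0.0215 by limma), and DDX28, a helicase of large subunit assembly, by -0.33 (adjusted p = 0.0227 by limma). NGRN, needed for the stability of the large ribosomal RNA, rose from 32.7 ± 3.13 to 40.6 ± 0.848 TPM (SD, n = 3, log2 fold change 0.31, adjusted p = 0.0274 by limma). DHX30, an RNA helicase, and MTG1, a GTPase of large subunit assembly, made up the other lower calls (log2 fold changes -0.31 and -0.29, adjusted p = 0.0290 and 0.0497 by limma) and are named outside the rule for named genes.

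The 18 mitochondrial translation factors and related enzymes tested had a median log2 fold change of -0.11 (-0.061 on the recovered reads). Of these, 1 was lower (5.56%, beside 8.98% of all genes tested). It was TRMU, which thiolates mitochondrial transfer RNAs, at 9.84, 8.08 and 8.90 TPM with CsiRNA and at 6.22, 6.13 and 5.77 TPM with NEAT1siRNA (log2 fold change -0.49, adjusted p = 0.000909 by limma). Of 9 genes that transcribe or maintain mitochondrial DNA, 3 were lower (33.3%, beside 8.98% of all genes tested). Their median was -0.27, and -0.26 on the recovered reads. TFB2M, a transcription initiation factor, fell from 19.7 ± 2.46 to 13.8 ± 1.56 TPM (SD, n = 3, log2 fold change -0.48, adjusted p = 0.00239 by limma). TWNK, the replicative helicase, and POLG, the catalytic subunit of the polymerase, changed by -0.40 and -0.31 (adjusted p = 0.00482 and 0.0275 by limma). Looked up by symbol, 0 of 15 genes of mitochondrial DNA itself had a row in the expression table, so their transcripts could not be analysed. Without CsiRNA replicate 1 or without NEAT1siRNA replicate 3, the number of genes called in the lists of this pathway fell from 10 to 4. Over all genes tested the share called fell from 14.0% to 7.08% and 7.82% in these runs.

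Beside these, 2 of 78 cytoplasmic ribosomal protein genes tested were lower, RPL36A (log2 fold change -0.47, adjusted p = 0.00326 by limma) and RPL27 (-0.30, adjusted p = 0.0448 by limma), with a median of -0.058. Of 76 nuclear genes for respiratory chain subunits, 1 was lower, NDUFC2 of complex I (log2 fold change -0.46, adjusted p = 0.00420 by limma), with a median of -0.035. On the recovered reads both medians moved, to -0.0049 and 0.020. The shares of lower calls were 2.56% and 1.32%, beside 5.19% of the mitoribosomal genes and 8.98% of all genes tested. The difference between the lists was not tested.

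**Figure D4:**
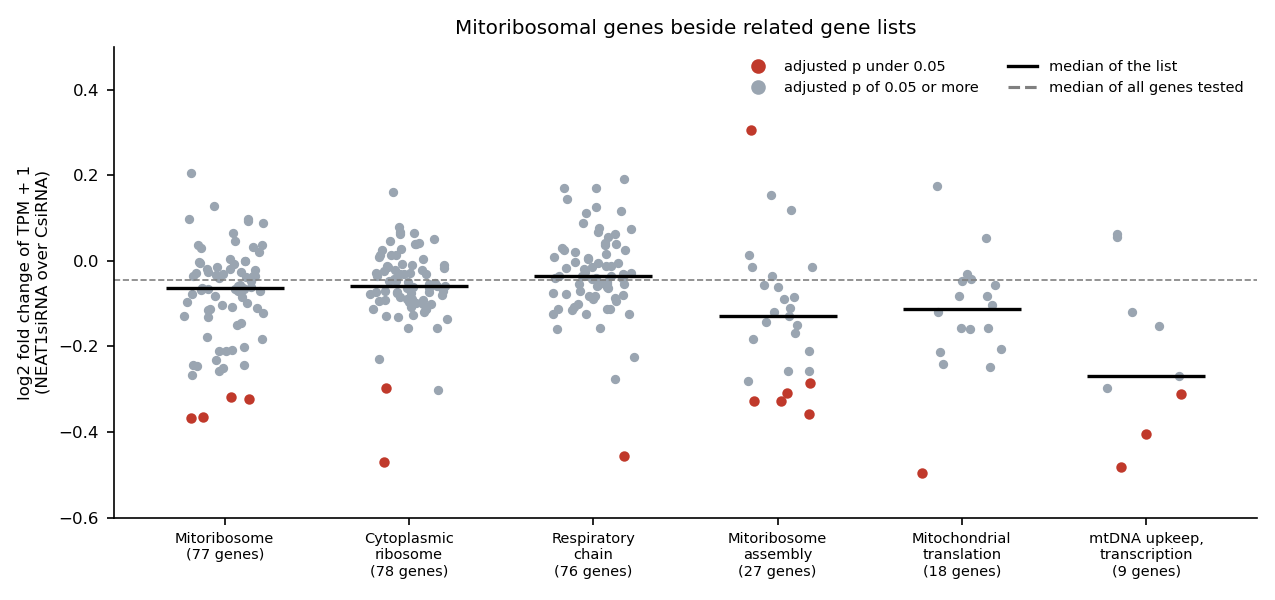
Log2 fold change of TPM + 1 (NEAT1siRNA over CsiRNA, vertical axis) of each gene tested in 6 lists (horizontal axis), with red points past the threshold, a black line at the median of the list and a dashed line at the median of all genes tested. The medians are -0.064 for the mitoribosome, -0.058 for the cytoplasmic ribosome, -0.035 for the respiratory chain, -0.13 for assembly factors, -0.11 for translation factors and -0.27 for genes of mitochondrial DNA upkeep and transcription.

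Many mitoribosomal genes lie head to head with another gene. In the GENCODE annotation 28 members (35.9%) had a gene on the other strand that starts within 1000 bases, beside 20.2% of the genes tested. They formed 27 pairs, 1 of which joined MRPL46 and MRPS11, whose starts lie 320 bases apart. In 24 pairs both genes were tested, and they had the same sign in 13. Negative signs were found in 80.5% of members and 60.7% of all genes tested, and the pairs were not compared with other pairs of genes. The MRPL46 and MRPS11 pair differed in sign, at -0.21 and 0.036, and in level, at 15.3 and 3.46 TPM.

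In 3 of the 24 pairs the neighbour was lower past the threshold, beside 8.98% of all genes tested. None of these pairs holds a called mitoribosomal gene, so in none could both genes be past it. MRPL10, the only called member with such a neighbour, faces LRRC46, which was under the filter (0.400 TPM). TWNK starts 46 bases from MRPL43 and was at 5.97, 5.47 and 5.49 TPM with CsiRNA and at 4.27, 4.13 and 3.67 TPM with NEAT1siRNA. MRPL43, a large subunit protein found in mitochondria alone, had a log2 fold change of -0.019 (adjusted p = 0.922 by limma) beside -0.40 for TWNK. APBA3 starts 990 bases from MRPL54 and had a log2 fold change of -0.34 (adjusted p = 0.0178 by limma) beside 0.13 for MRPL54. EME2, whose transcript overlaps that of MRPS34 at the start, changed by -0.52 (adjusted p = 0.0234 by limma) beside -0.021 for MRPS34, a small subunit protein found in mitochondria alone. EME2 was at 2.07, 0.966 and 2.34 TPM with CsiRNA and at 1.41, 0.814 and 0.540 TPM with NEAT1siRNA, so its groups overlapped. Its mean over all libraries was 1.36 TPM, close to the filter of 1 TPM, and its NEAT1siRNA mean of 0.923 TPM was under it. Whether the counting used strand is not given in the sources used here. The difference between the genes of a pair was not tested.

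**Figure D5:**
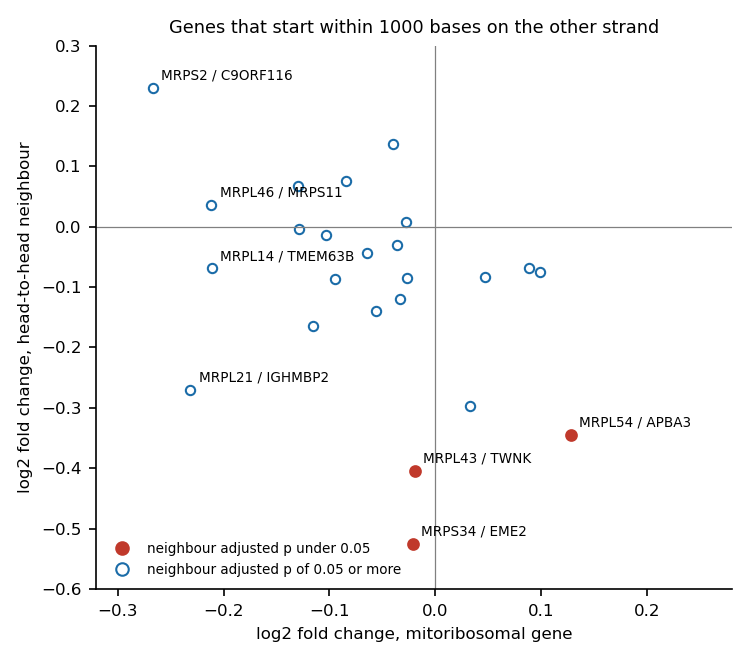
Log2 fold change of the mitoribosomal gene (horizontal axis) and of its head-to-head neighbour (vertical axis) in the 24 pairs with both genes tested, with red points where the neighbour passed the threshold. TWNK, APBA3 and EME2 lie between -0.34 and -0.52, while MRPL43, MRPL54 and MRPS34 lie between -0.021 and 0.13.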

How the data were processed

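RNA-seq libraries were prepared by the authors with a stranded mRNA kit from total RNA, and the authors processed the reads with STAR and DESeq2 on GRCh38. The counting tool is not given in the sources used here. The authors deposited TPM values per gene and library (25545 genes, 6 libraries) and a comparison table. From the latter only the mean normalized count, a signal over all 6 libraries that the authors deposited, was used, and its fold changes, standard errors, test scores and p-values were not. Joining it with the TPM values returned whole reads (within 0.05) for 99.8% of values in genes with a mean under 5. The share was 98.5% from 5 to 50, 75.4% from 50 to 500 and 17.2% above. The median mitoribosomal gene tested had 683 reads per library, in the range recovered least well. Values were rounded to whole reads before voom. The match did not follow read number alone. MRPS27, with a mean of 2784 reads and an implied length of 2639 bases, came back whole. MRPL54, with 110 reads and 349 bases, did not, and the cause was not tested. Read totals per library are given in the report, and more deeply read genes are measured more precisely.

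Values were transformed to log2(TPM + 1), genes with a mean of at least 1 TPM were kept (10721), and the groups were compared with lmFit and eBayes (trend) of limma 3.58.1 in R 4.3.3, with Benjamini-Hochberg adjustment over all genes tested and a threshold of 0.05. Fold changes on this scale understate those of low genes. With 3 against 3 libraries, an exact permutation test cannot go below p = 0.1, so none was used. Summaries used Python 3.11.15, numpy 2.4.6, pandas 2.3.3 and matplotlib 3.10.9. Coordinates, GC content and length came from GENCODE v44 by symbol, matching 22541 rows by current and 955 by older symbol. The build agrees in name with that of the labels, but the annotation release of the authors was not used here.

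The mitoribosomal genes and the lists were chosen with earlier results of these data known. Genes named are NEAT1, every mitoribosomal gene past the threshold, the 4 most and 4 least abundant, the 3 largest rises and falls, those under 1 TPM, those of the stalk, exit tunnel, central protuberance and MRPS18 paralogs, and up to 4 called genes of each companion list. Alternatives were another pseudocount, no filter or a mean of 5 TPM, median centring, quantile normalization, no trend in eBayes, the replicate number as a block, removal of GC and length trends, both together, voom on recovered reads, a threshold of 0.01 and leaving out each library.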

Additional observations from a re-analysis of the deposited data

How the results depend on the processing

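The number of mitoribosomal genes called was 4 and changed with the processing. It was 0 by limma with no filter on TPM (11 lower and 1 higher at an unadjusted p under 0.05), 0 at an adjusted p under 0.01, 7 with median centring (9.09% of members, beside 19.7% of all genes tested), 10 with quantile normalization (13.0%, beside 20.4%) and 11 with GC and length trends removed (14.3%, beside 22.6%). Leaving out 1 library gave between 0 and 13. The genes called in the companion lists of the pathway numbered 10, and were 1 with no filter, 6 at a mean of 5 TPM, 16 by voom, 16 with GC and length trends removed and from 4 to 17 when leaving out 1 library. Over all genes tested the calls were 1498, beside 505 with no filter, 2385 with GC and length trends removed, 2467 by voom, 759 without CsiRNA replicate 1 and 838 without NEAT1siRNA replicate 3. The share of calls that were higher was 35.7%, and 54.8% after median centring, 49.4% after quantile normalization and 49.7% by voom. The median log2 fold change of the members was negative under every alternative run, from -0.11 to -0.0075. Over all genes tested this median ran from -0.082 to 0.013, and was positive only after median centring (0.013) and by voom (0.0029). Without CsiRNA replicate 2 the members' median (-0.039) lay above that of all genes tested (-0.052). MRPS25 lost its call after median centring (adjusted p = 0.0619 by limma).

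Deviations of libraries with the same replicate number correlated at -0.030, 0.25 and -0.11, and those with unlike numbers from -0.40 to 0.40. These values cannot tell whether the numbers mark pairs, since the libraries also differed along GC content within groups. With the replicate number as a block, 7 mitoribosomal genes were called (9.09%, beside 15.3% of all genes tested), and with GC and length trends removed as well 15 were (19.5%, beside 25.4%), with 19 in the companion lists.

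The sign turned for members near 0. Under median centring the log2 fold changes were 0.026 for MRPL12, 0.056 for MRPL45, 0.023 for MRPL18, 0.022 for MRPL48, 0.021 for MRPS18B and 0.029 for MRPS18C. Under quantile normalization they were 0.0094, 0.054, 0.0062, 0.022, 0.017 and 0.016 for these genes, and by voom 0.017, 0.054, 0.021, 0.015, 0.0085 and 0.029. MRPL38 was at -0.019 with GC and length trends removed, with and without the replicate block. Leaving out 1 library gave ranges of -0.065 to 0.0092 for MRPL12, -0.045 to 0.046 for MRPL45, -0.10 to 0.050 for MRPL18, -0.0030 to 0.051 for MRPL38, -0.024 to 0.065 for MRPL40, -0.096 to 0.0092 for MRPL48 and -0.12 to 0.047 for MRPS18C. The cause of these changes was not tested.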

Other observations

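Other pairs of head-to-head genes were chosen after their values were seen. MRPS2 (log2 fold change -0.27) faces C9ORF116, which was at 13.9, 12.9 and 12.4 TPM with CsiRNA and at 16.6, 14.2 and 15.6 TPM with NEAT1siRNA, a log2 fold change of 0.23 that missed the threshold (adjusted p = 0.107 by limma). MRPL21 (-0.23) and its neighbour IGHMBP2 (-0.27) had the same sign, and neither passed the threshold (adjusted p = 0.0791 and 0.0720 by limma). MRPL40 (0.033) faces HIRA, a histone chaperone gene, which lay just outside the threshold (log2 fold change -0.30, adjusted p = 0.0501 by limma).

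The transcripts of the members are short, with a median length of 1260 bases beside 3329 bases over all genes tested, and their median GC content was 48.0% beside 47.3%. Across the 77 members Spearman's rho between log2 fold change and GC content was 0.071, which describes genes measured in the same 6 libraries.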
